A study of Mus musculus with 12 samples.

Results

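The genes described here encode the enzymes that build cholesterol and fatty acids and the proteins that regulate this synthesis, in regulatory T (Treg) cells. They were taken from a list of 34 genes, and 31 of them had a transcript cluster (the probes that an array assigns to 1 transcript unit) annotated with that gene's symbol alone, among 22180 genes measured in this way. The 31 comprised 16 of 18 enzymes of the mevalonate and sterol pathway, 6 of 6 sterol regulators and 9 of 10 genes of fatty acid synthesis. *Acat2* had no cluster of its own, and the clusters of *Idi1* and *Scd2* carried several symbols, so these 3 genes were given no value. Where a gene had several clusters, as *Scap* did, the one with the highest mean over all arrays was used.

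Acetyl-CoA feeds both pathways. In the mevalonate pathway it is condensed and reduced to mevalonate, built up to isoprenoids and squalene, cyclized to lanosterol and trimmed to cholesterol. In fatty acid synthesis it is made from citrate, carboxylated to malonyl-CoA, assembled into palmitate and then elongated and desaturated. The transcription factors SREBP-1 and SREBP-2 drive most of these genes and are released from the endoplasmic reticulum by Scap when sterols are low, whereas the Insig proteins hold Scap back. AMPK, a kinase that Lkb1 activates, is known to inhibit acetyl-CoA carboxylase, and activated T cells take up and make lipids as they grow.

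RNA came from CD4+YFP+ Treg cells that had been sorted out of mouse lymph nodes and spleen, and 4 genotypes were labelled with 3 arrays in each. The Lkb1 experiment set *Foxp3*Cre/+*Lkb1*f/f against *Foxp3*Cre/+ (no floxed gene), both labelled female. The TGF-βR2 experiment set *Foxp3*Cre*Tgfbr2* f/f against *Foxp3*Cre (no floxed gene), both labelled male. Every group, controls included, carried the *Foxp3* allele with a fused YFP and Cre, which confines deletion to cells that express *Foxp3*. Because *Foxp3* lies on the X chromosome, the sorted cells of a heterozygous female share the animal with Treg cells that use the intact allele. Ages are given in no source used here, nor is the number of mice behind an array. The 2 experiments also differed in labelled sex, so experiment and sex cannot be told apart between them.

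All levels below are log2 values minus the median of the same array, so that 0 is the array median, and differences are knockout minus control on that scale. A level on this scale compares 1 gene across arrays and not 1 gene with another. The deposited values fell into 8 lower-intensity arrays, 2 per genotype, with medians of 5.48 to 5.60, and 4 higher-intensity arrays, 1 per genotype, with medians of 6.30 to 6.33. All 4 higher-intensity arrays went against their labelled sex. *Xist*, the RNA of the inactive X chromosome, was at -1.24 and -0.999 on the pair labelled female and at 4.54 and 4.70 on the pair labelled male. These were the arrays labelled *Foxp3*Cre/+ replicate 3, *Foxp3*Cre/+*Lkb1*f/f replicate 3, *Foxp3*Cre replicate 3 and *Foxp3*Cre*Tgfbr2* f/f replicate 1. The labels do not settle to which experiment or genotype these 4 arrays belong, and an exchange between the experiments was not tested. The genotypes were kept as labelled, so every difference of 3 against 3 arrays below holds only for the arrays as labelled, and the main differences and counts are also given for the lower-intensity arrays, which do not rest on them. *Stk11*, which encodes Lkb1, was at 2.68 and 2.33 on the lower-intensity *Foxp3*Cre/+*Lkb1*f/f arrays and at 3.27 on the higher-intensity one, against 2.90 to 3.15 on the 3 controls. *Tgfbr2* was at 2.51 and 2.31 on the lower-intensity *Foxp3*Cre*Tgfbr2* f/f arrays and at 3.55 on the higher-intensity one, against 2.71 to 3.48 on the 3 controls. In both experiments the lower-intensity knockout arrays thus lay below every control and the higher-intensity one above every control, against its label. On the higher-intensity arrays of the other experiment (control and knockout), *Stk11* was at 3.05 and 2.78 and *Tgfbr2* at 3.25 and 2.71. The part of either gene that the probes cover is not known from the sources used here. Mean levels of 9 Treg and T cell markers were 5.21 to 5.57 on all 12 arrays. Those of 16 macrophage and monocyte markers were 3.36 on *Foxp3*Cre/+ replicate 2 and -0.30 to 1.25 on the others, and those of 8 B cell markers were 1.59 and 0.84 on the higher-intensity arrays of the Lkb1 experiment (control and knockout) and -0.48 to -0.09 on the others.

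No lipid synthesis gene passed the test in either knockout. The 3 arrays of each knockout were set against the 3 of its control in limma, a linear model with moderated variances, and p-values were adjusted by the Benjamini-Hochberg method over 41345 clusters, with 0.05 as the threshold. It called 0 clusters (0%) in the Lkb1 comparison, 0 (0%) in the TGF-βR2 comparison and 0 (0%) for the difference between the 2 knockout effects. At an unadjusted p under 0.05 there were 462 clusters (1.12%) in the Lkb1 comparison, with 0 of the 31 lipid genes among them, and 706 clusters (1.71%) in the TGF-βR2 comparison, with 1 lipid gene, *Sc5d*. A plain test without moderation, which the study's methods name, also called 0 clusters after adjustment in both comparisons. An exact permutation test, two-sided, cannot go below 0.1 with this many arrays, and p-values measure only the spread among samples labelled as biological replicates. In sorted populations, a smaller share of a cell type and less RNA per cell cannot be told apart.

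Promoter sequences are shown for the gene with the largest Lkb1 difference (*Insig1*), for the gene with the smallest p (*Sc5d*) and for *Hmgcs1*. Of the 25 genes whose promoter could be searched, only *Hmgcs1* held the sterol regulatory element. The RefSeq promoter table (GRCm38.p6) holds windows of 250 bases before to 50 after the annotated start for 25 of the 31 genes, not for *Fdps*, *Fdft1*, *Sqle*, *Stard4*, *Scd1* and *Fads1*. Capitals mark matches, on either strand, to the sterol regulatory element TCACNCCAC (bound by SREBP), the CCAAT box (bound by NF-Y, a partner of SREBP) and the E-box CACGTG (which SREBP can also bind). The windows lie at chr13:119690101-119690400 (plus strand) for *Hmgcs1*, chr5:28071162-28071461 (plus strand) for *Insig1* and chr9:42264251-42264550 (minus strand) for *Sc5d*, each written 5′ to 3′ in the direction of the gene.
Hmgcs1: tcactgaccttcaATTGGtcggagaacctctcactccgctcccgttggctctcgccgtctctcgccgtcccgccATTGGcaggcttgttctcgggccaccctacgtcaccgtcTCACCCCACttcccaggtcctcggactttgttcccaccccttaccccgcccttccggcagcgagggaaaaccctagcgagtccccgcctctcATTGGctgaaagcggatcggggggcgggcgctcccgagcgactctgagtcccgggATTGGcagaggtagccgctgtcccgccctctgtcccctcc
Insig1: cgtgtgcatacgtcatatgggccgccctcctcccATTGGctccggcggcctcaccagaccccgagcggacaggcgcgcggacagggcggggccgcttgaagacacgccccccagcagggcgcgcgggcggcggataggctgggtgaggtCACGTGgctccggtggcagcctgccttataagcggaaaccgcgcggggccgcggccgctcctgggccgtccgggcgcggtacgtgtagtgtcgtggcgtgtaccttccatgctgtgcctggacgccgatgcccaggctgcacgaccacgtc
Sc5d: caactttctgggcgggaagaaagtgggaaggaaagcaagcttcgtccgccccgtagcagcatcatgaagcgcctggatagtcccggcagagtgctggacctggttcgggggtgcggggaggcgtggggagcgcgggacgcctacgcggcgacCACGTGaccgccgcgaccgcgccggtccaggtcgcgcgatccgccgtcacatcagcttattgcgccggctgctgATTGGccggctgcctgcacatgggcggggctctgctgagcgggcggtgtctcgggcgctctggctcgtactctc

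The CCAAT box was common in these promoters. It was present in 13 of 13 sterol enzyme genes with a window (100%), 4 of 5 sterol regulators and 5 of 7 fatty acid genes, against 41.1% of the 27025 genes in the table, where a gene counted if any of its windows held the motif. The E-box was present in 6 of the 25 genes (24%), *Dhcr7*, *Hsd17b7*, *Sc5d*, *Insig1*, *Scap* and *Elovl5*, against 8.09% of all genes. TCACNCCAC was present in *Hmgcs1* alone (4%), against 1.44% of all genes, and lay at positions -137 to -129 from the start. Of 4 other spellings of this element that were searched, CACCCCAC, TCACCCCA, TCACNCNAC and TCACNNCAC, the last was found most often, in *Hmgcs1*, *Dhcr7*, *Hsd17b7* and *Msmo1* (16%, against 4.37% of all genes). TCACNCNAC was also found in *Nsdhl* and TCACCCCA in *Srebf2*. The GC box GGGCGG was present in 20 of the 25 genes (80%), against 38.2% of all genes. These shares describe letters in the windows and were not tested.

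Across the 12 arrays, sterol genes were most often highest on the array labelled *Foxp3*Cre replicate 3 and most often lowest on *Foxp3*Cre/+*Lkb1*f/f replicate 2. The former held the highest value for 9 of the 22 sterol enzymes and regulators (40.9%), against 15.8% of the 11844 genes whose mean lay above the array median. The latter held the lowest value for 8 of 22 (36.4%), close to the 34.5% of those genes. The genotype mean was highest in *Foxp3*Cre for 14 of 22 sterol genes (63.6%, against 31.5%) and lowest in *Foxp3*Cre/+*Lkb1*f/f for 16 of 22 (72.7%, against 53.8%). On the lower-intensity arrays alone these counts were 10 (45.5%, against 25.4%) and 13 (59.1%, against 51.3%). The order is a description across experiments that differ in labelled sex, and it was not tested.

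**Figure D1:**
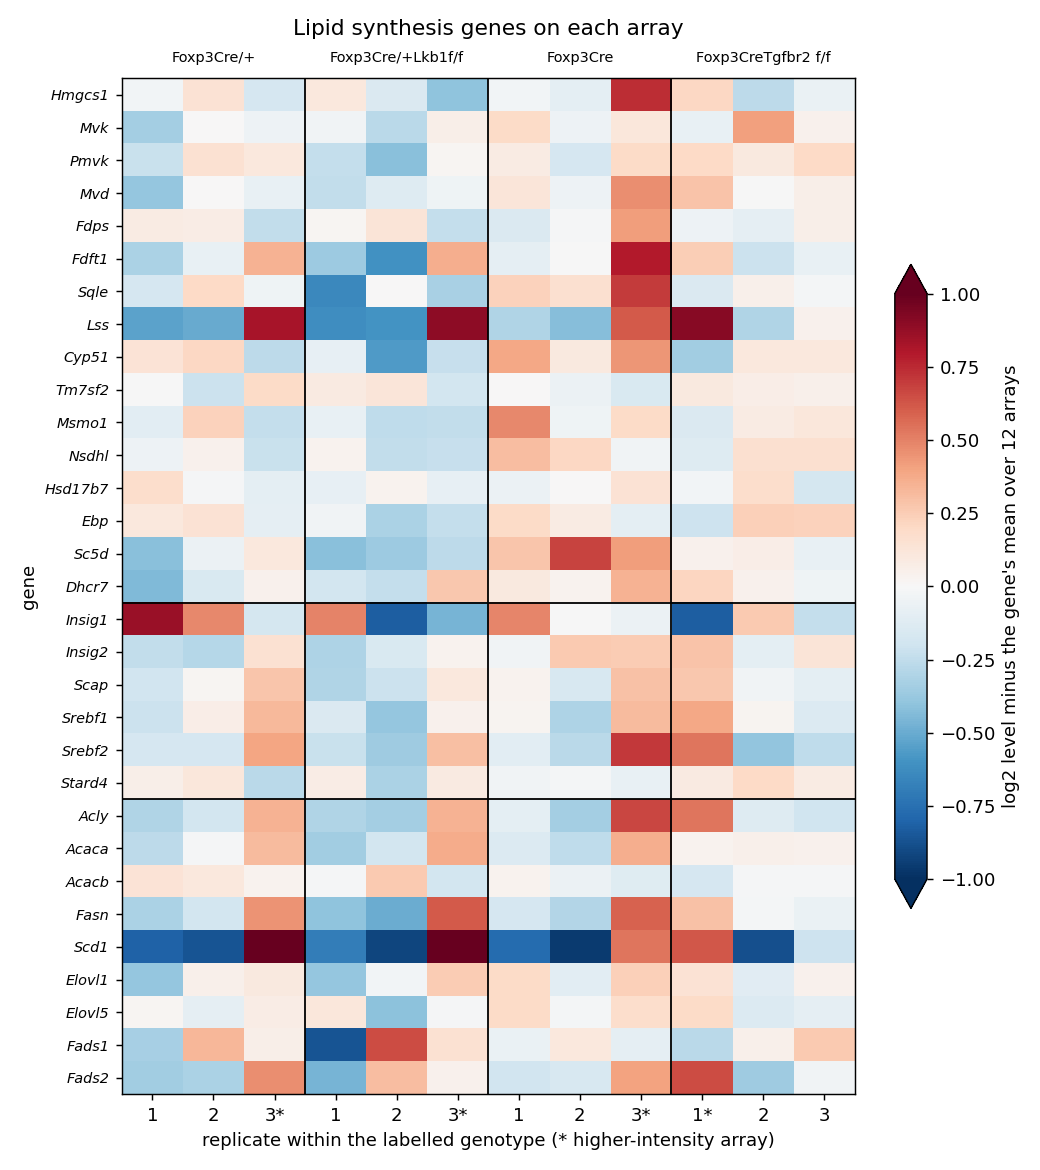
Heat map of the 31 genes (rows) on the 12 arrays (columns, grouped by labelled genotype, with * for higher-intensity arrays), as the log2 level of each gene minus its own mean over the 12 arrays. Lines divide the sterol enzymes, the sterol regulators and the fatty acid genes. *Scd1* runs from -2.24 to 2.03 relative to the array median and exceeds the color range, and *Lss* and *Srebf2* follow the intensity sets.

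In Lkb1-deficient Treg cells the sterol genes were slightly lower in most cases, at a share not far above that of other genes in the upper part of the arrays. Of the 22 sterol enzymes and regulators, 17 had a lower mean in *Foxp3*Cre/+*Lkb1*f/f than in *Foxp3*Cre/+ and 5 a higher one, with a median difference of -0.12, and none passed the test. The share lower was 77.3%, against 66.7% of the genes above the array median (median -0.058) and 56.1% of all genes (median -0.023). On the lower-intensity arrays 17 of 22 were again lower (77.3%, median -0.14), against 64.0% of the genes above the array median (median -0.067). For the 2 higher-intensity arrays 13 of 22 were lower (median -0.045). Among the genes above the array median 6894 of 11844 were lower there (median -0.034), a like share. When *Foxp3*Cre/+ replicate 2 was left out, which had the high macrophage markers, 17 of 22 were lower, with a median of -0.12. The intensity sets were then unequal between genotypes, and no share of all genes was set beside this count. The groups overlapped for 31 of 31 lipid genes in this comparison, where the knockout arrays lay all below the controls for 2.08% of genes and all above for 1.61%.

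**Figure D2:**
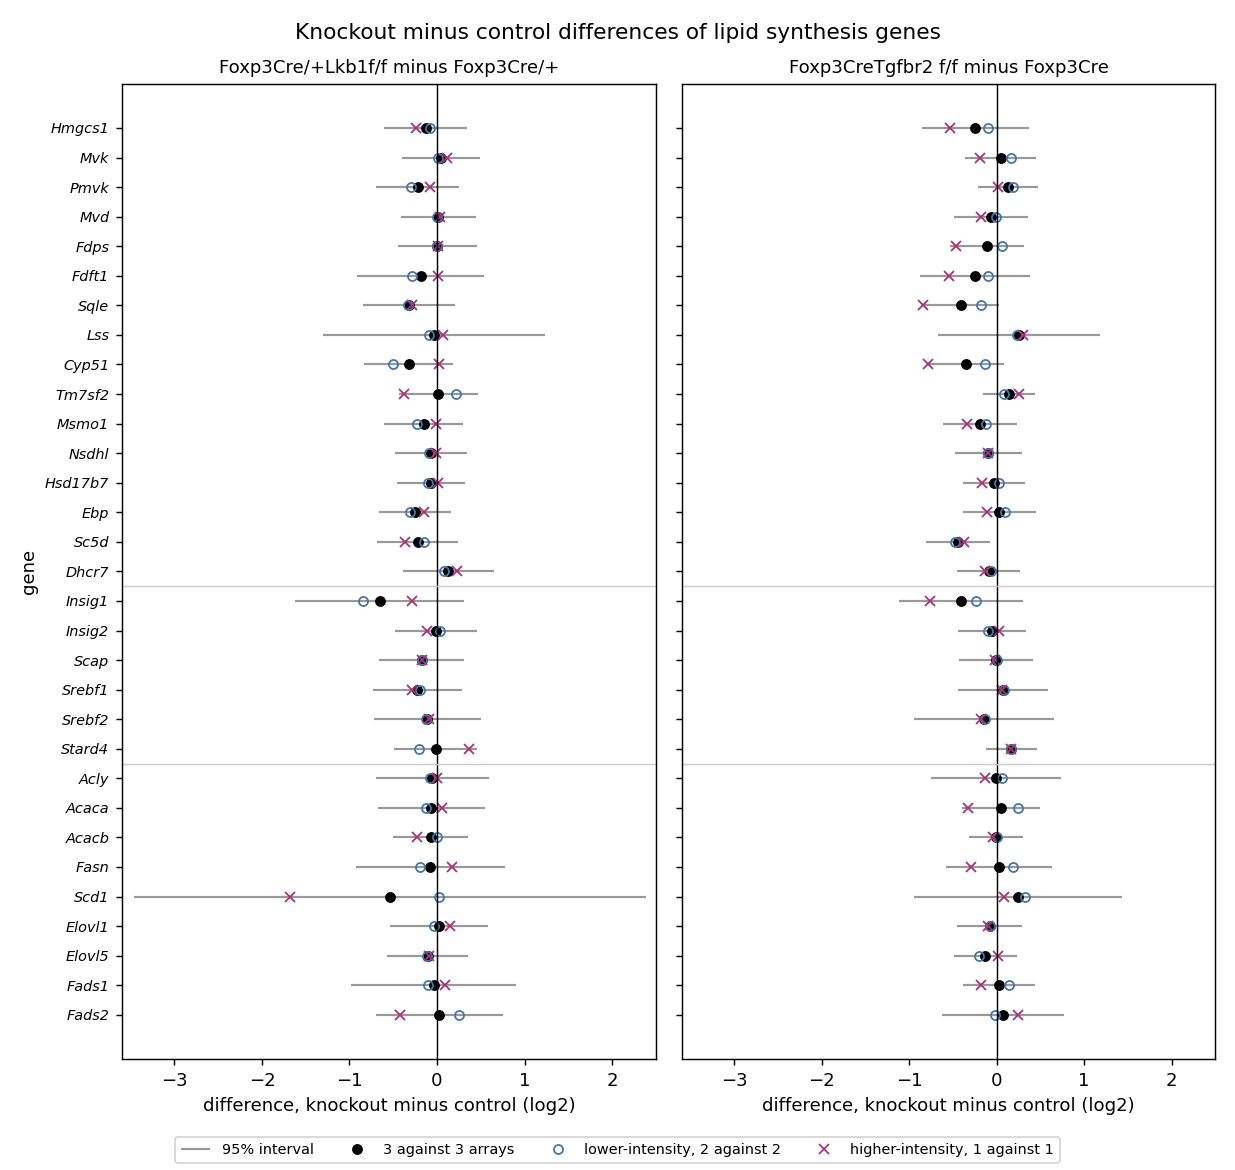
Difference in log2 level, knockout minus control, for each of the 31 genes in the Lkb1 (left) and TGF-βR2 (right) comparisons. Black points are all 3 against 3 arrays with the 95% limma interval (grey lines), open circles the lower-intensity arrays and crosses the higher-intensity arrays. Every interval crosses 0 except that of *Sc5d* in the TGF-βR2 comparison.

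*Insig1*, which encodes the sterol-sensing protein that retains Scap, was the only lipid gene that differed by 1.5-fold or more. Its levels were 3.15, 2.77 and 2.11 on the control arrays (*Foxp3*Cre/+) and 2.78, 1.46 and 1.82 on the knockout arrays (*Foxp3*Cre/+*Lkb1*f/f). The groups overlapped, because *Foxp3*Cre/+*Lkb1*f/f replicate 1 was as high as a control. The means were 2.68 ± 0.53 (SD, n = 3) and 2.02 ± 0.68 (SD, n = 3), a 1.58-fold lower level, or -0.66 on the log2 scale (SE 0.41, 95% interval -1.62 to 0.31, limma p = 0.15, adjusted p = 1.0, exact permutation p = 0.3). The difference was -0.84 on the lower-intensity arrays and -0.29 for the higher-intensity pair, and it was -0.38 when replicate 2 of the knockout was left out. One gene of 31 (3.23%) at this size compares with 1.69% of all genes 1.5-fold or more lower, while 0 of 31 were 1.5-fold or more higher, against 0.559%.

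The other 5 sterol regulators differed less, and all 6 had a lower mean in *Foxp3*Cre/+*Lkb1*f/f (median -0.14). Of the genes above the array median 66.7% had a lower mean (median -0.058). *Srebf1*, the gene of SREBP-1, differed by -0.22, with means of 2.11 ± 0.27 and 1.89 ± 0.22 (SD, n = 3 each). *Srebf2*, the gene of SREBP-2, differed by -0.11, and *Scap*, the escort of both factors, by -0.17. *Insig2*, the second Insig gene, differed by -0.014, and *Stard4*, a carrier of cholesterol between membranes, by -0.017. On the lower-intensity arrays 5 of these 6 genes were lower, against 64.0% of the genes above the array median. The difference of *Srebf1* was -0.19 there and -0.28 for the higher-intensity pair.

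Among the sterol enzymes 11 of 16 had a lower mean after Lkb1 deletion, with differences from -0.33 to 0.13. This share of 68.8% was close to the 66.7% of the genes above the array median. On the lower-intensity arrays 12 of 16 were lower (75.0%, against 64.0%, median -0.10), and for the higher-intensity pair 8 of 16 (median 0.0009). *Cyp51*, the lanosterol demethylase, had levels of 1.11, 1.18 and 0.71 in *Foxp3*Cre/+ and 0.89, 0.40 and 0.74 in *Foxp3*Cre/+*Lkb1*f/f. The knockout arrays lay below both lower-intensity controls but not all below the higher-intensity one, and the difference was -0.33 (95% interval -0.84 to 0.19), with -0.50 on the lower-intensity arrays and 0.024 for the higher-intensity pair. *Sqle*, squalene epoxidase, differed by -0.32, *Ebp*, the X-linked sterol isomerase, by -0.25, and *Sc5d*, which encodes the sterol C5 desaturase, by -0.22. *Pmvk*, phosphomevalonate kinase, differed by -0.22, *Fdft1*, squalene synthase, by -0.19, *Msmo1*, the C4 methyl oxidase, by -0.15, and *Hmgcs1*, cytosolic HMG-CoA synthase, by -0.13. For the lower-intensity arrays and the higher-intensity pair in turn, the difference was -0.34 and -0.28 for *Sqle* and -0.30 and -0.15 for *Ebp*. These genes lie at early and late steps of the pathway, and so do those with higher means. The remaining 8 enzymes were *Mvk* (0.047), *Mvd* (0.014), *Tm7sf2* (0.017) and *Dhcr7* (0.13), with higher means, *Fdps* (0.0005), with almost equal ones, and *Lss* (-0.037), *Nsdhl* (-0.067) and *Hsd17b7* (-0.065), with lower ones. The difference exceeded the SD of both groups for only 3 of the 31 lipid genes, and the median half-width of the 95% intervals over the 31 was 0.49.

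**Figure D3:**
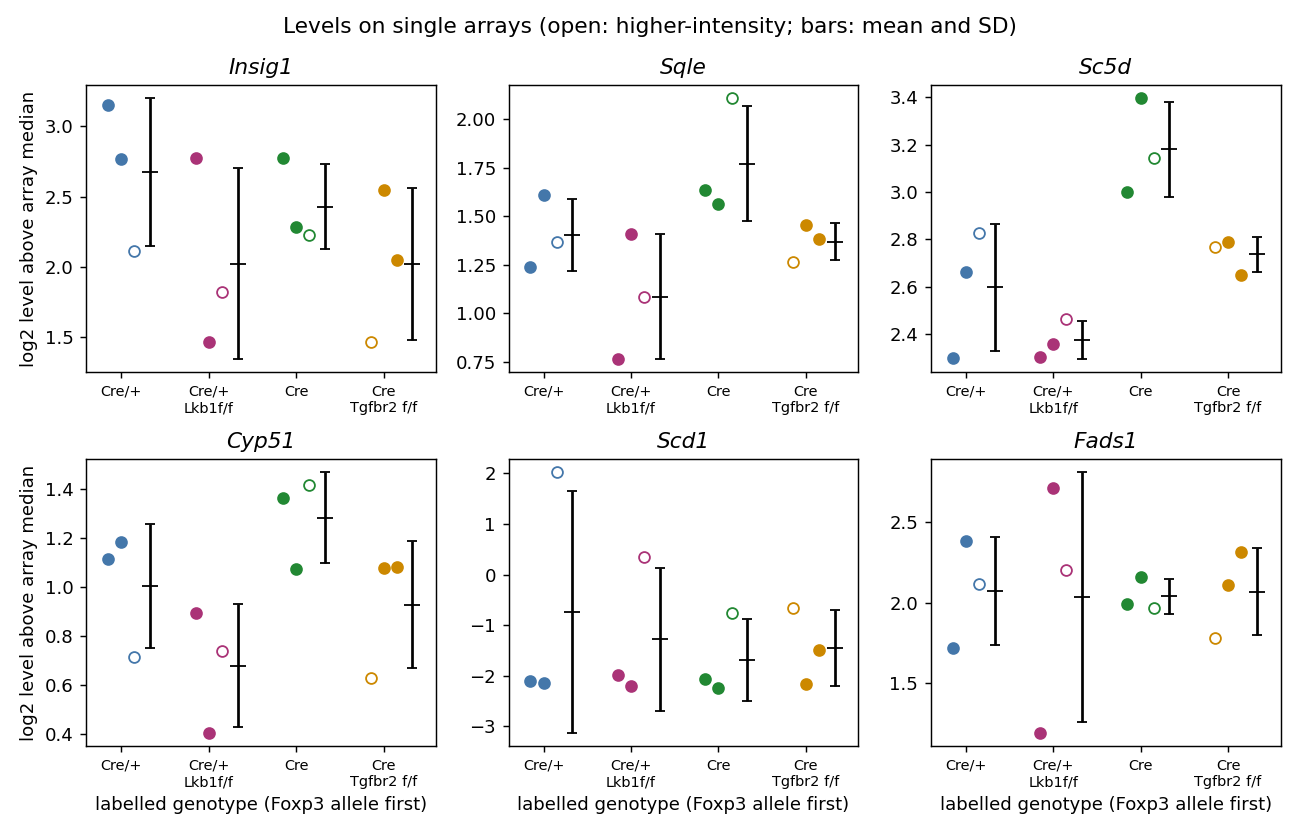
Log2 level above the array median of 6 genes on each array, by labelled genotype. Filled points are lower-intensity and open points higher-intensity arrays, and bars give the mean and SD of 3 arrays. For *Sc5d* the 3 *Foxp3*Cre arrays (3.00 to 3.40) lie above all 9 others, and *Scd1* is high on the higher-intensity arrays.

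In TGF-βR2-deficient Treg cells the most separated gene was *Sc5d*, which introduces the C5 double bond late in cholesterol synthesis. Its levels were 3.00, 3.40 and 3.14 in *Foxp3*Cre and 2.77, 2.79 and 2.65 in *Foxp3*Cre*Tgfbr2* f/f, where each knockout array was lower than each control. The means were 3.18 ± 0.20 and 2.74 ± 0.07 (SD, n = 3 each), with a difference of -0.44 (SE 0.15, 95% interval -0.80 to -0.08, limma p = 0.023, adjusted p = 1.0, exact permutation p = 0.1). It was of like size within both intensity sets, being -0.48 on the lower-intensity arrays and -0.38 for the higher-intensity pair.

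*Sqle* was the other gene with all knockout arrays below the controls, at 1.64, 1.56 and 2.11 in *Foxp3*Cre and 1.27, 1.46 and 1.38 in *Foxp3*Cre*Tgfbr2* f/f. The highest control and the lowest knockout value came from the higher-intensity arrays. The difference of -0.40 (SE 0.18, limma p = 0.063, adjusted p = 1.0, exact permutation p = 0.1) was -0.18 on the lower-intensity arrays and -0.84 for the higher-intensity pair. These 2 of 31 genes (6.45%) compare with 2.27% of all genes. *Tm7sf2*, a sterol C14 reductase, and *Stard4* lay all above their controls, again 2 of 31 (6.45%), against 2.37% of all genes. *Tm7sf2* was at 1.17, 1.11 and 1.02 in the controls and 1.27, 1.24 and 1.22 in the knockout arrays, a difference of 0.14 (SE 0.13, limma p = 0.29, adjusted p = 1.0, exact permutation p = 0.1). *Stard4* was at 0.82, 0.84 and 0.79 in the controls and 0.95, 1.05 and 0.94 in the knockout arrays, a difference of 0.17 (SE 0.12, limma p = 0.22, adjusted p = 1.0, exact permutation p = 0.1). The difference within the lower-intensity arrays and for the higher-intensity pair was 0.088 and 0.25 for *Tm7sf2* and 0.17 and 0.16 for *Stard4*. Both genes differed by little against the 1.5-fold mark, which no lipid gene reached in this comparison, where 0.424% of all genes were that much lower and 0.167% higher.

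In the TGF-βR2 comparison the intensity sets differed widely for some of the remaining sterol genes and little for others. Of 22 sterol genes 15 had a lower mean in *Foxp3*Cre*Tgfbr2* f/f (68.2%, median -0.079), against 45.8% of the genes above the array median and 48.2% of all genes. On the lower-intensity arrays 13 of 22 were lower (59.1%, median -0.039), against 41.8% of the genes above the array median (median 0.030). For the higher-intensity pair 16 of 22 were lower (median -0.17), against 6591 of 11844 of those genes (median -0.024). Leaving out *Foxp3*Cre replicate 3, on which 9 sterol genes were highest, left 8 of 22 lower and a median of 0.027, with the intensity sets then unequal between genotypes. *Hmgcs1* was at 0.99, 0.93 and 1.76 in *Foxp3*Cre and 1.23, 0.76 and 0.96 in the knockout arrays, and its difference was -0.10 within the lower-intensity arrays and -0.54 for the higher-intensity pair. The same pair of differences was -0.14 and -0.79 for *Cyp51*, -0.10 and -0.54 for *Fdft1*, 0.063 and -0.46 for *Fdps*, and -0.23 and -0.77 for *Insig1*. For *Hmgcs1*, *Fdft1* and *Fdps* the array labelled *Foxp3*Cre replicate 3 was the highest of the 6 (1.76, 3.59 and 2.55), whereas for *Cyp51* and *Insig1* the higher-intensity array labelled knockout was the lowest (0.63 and 1.46). Of the rest, *Msmo1* (-0.19), *Srebf2* (-0.15), *Nsdhl* (-0.096), *Dhcr7* (-0.090), *Mvd* (-0.068), *Insig2* (-0.052), *Hsd17b7* (-0.035) and *Scap* (-0.008) had lower means, and *Lss* (0.26), *Pmvk* (0.13), *Srebf1* (0.077), *Mvk* (0.044) and *Ebp* (0.030) had higher ones. Among these, the same pair of differences was alike for *Nsdhl* (-0.095 and -0.098), *Srebf2* (-0.13 and -0.18) and *Lss* (0.24 and 0.30). It was opposite in sign for *Mvk* (0.16 and -0.19), *Ebp* (0.097 and -0.11), *Hsd17b7* (0.031 and -0.17) and *Insig2* (-0.094 and 0.032). The others of these genes had the same sign in both sets.

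Fatty acid genes differed by little in most cases, and none passed the test. After Lkb1 deletion 7 of 9 had a lower mean (77.8%, median -0.065), against 66.7% of the genes above the array median and 56.1% of all genes. On the lower-intensity arrays 6 of 9 were lower (66.7%, median -0.078), against 64.0% of the genes above the array median. For the higher-intensity pair 5 of 9 were lower (median -0.003), against 6894 of 11844 of those genes. The median fell when a lower-intensity control (-0.18 for replicate 1, -0.098 for replicate 2) or the higher-intensity knockout array (-0.15) was left out. It rose when the higher-intensity control (0.12) or a lower-intensity knockout array (0.080 for replicate 1, 0.0001 for replicate 2) was left out. Each omission left the intensity sets unequal between genotypes. Mean levels of the fatty acid genes were 1.72 to 2.07 on the higher-intensity arrays and 1.12 to 1.47 on the others. The part of this imbalance in the shifts of the median was not tested. After Tgfbr2 deletion 4 of 9 had a lower mean (44.4%, median 0.029), against 45.8% of the genes above the array median and 48.2% of all genes. On the lower-intensity arrays 3 of 9 were lower (33.3%, median 0.056), against 41.8% of the genes above the array median. For the higher-intensity pair 6 of 9 were lower (median -0.097), against 6591 of 11844 of those genes. The enzymes that make palmitate differed little in both comparisons. *Acly*, which splits citrate into acetyl-CoA, differed by -0.053 after Lkb1 and by -0.008 after Tgfbr2 deletion. *Acaca*, the cytosolic acetyl-CoA carboxylase, differed by -0.065 and 0.049, and *Acacb*, the mitochondrial one, by -0.072 and -0.012. *Fasn*, fatty acid synthase, differed by -0.074 and 0.029, with 95% intervals of -0.92 to 0.78 and -0.58 to 0.64. Its level stepped with the intensity set, and with the set as a block in the fit the SE was 0.14 in the Lkb1 comparison (0.36 without the block) and 0.13 in the TGF-βR2 comparison (0.26 without it).

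**Figure D4:**
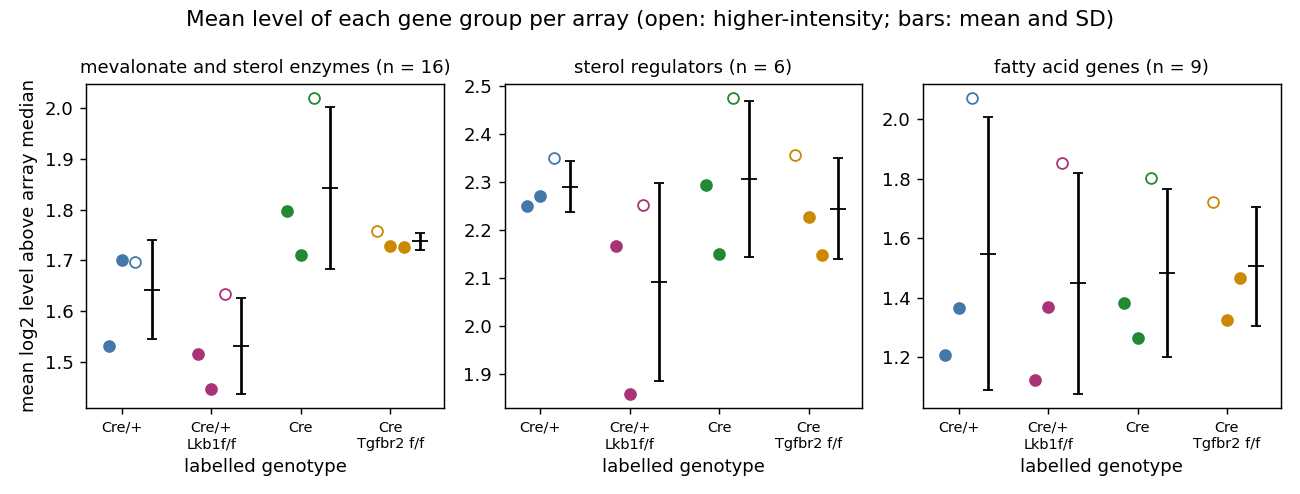
Mean log2 level above the array median of the 16 sterol enzymes, 6 sterol regulators and 9 fatty acid genes on each array, by labelled genotype. Open points are higher-intensity arrays, and bars give the mean and SD of 3 arrays. The higher-intensity array has the highest fatty acid mean in each genotype (1.72 to 2.07, against 1.12 to 1.47 on the others).

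*Scd1*, which makes oleate from stearate, was the most variable lipid gene. In the Lkb1 experiment its levels were -2.09, -2.15 and 2.03 in the controls and -1.98, -2.21 and 0.35 after deletion. In the TGF-βR2 experiment they were -2.06, -2.24 and -0.75 in the controls and -0.67, -2.16 and -1.50 after deletion. On each of the 8 lower-intensity arrays it lay well below the array median, and it was highest on the 2 arrays whose B cell markers were also highest (1.59 and 0.84); the part of other cells in its level was not tested. Its Lkb1 difference was -0.54 (95% interval -3.47 to 2.39), with 0.028 on the lower-intensity arrays and -1.68 for the higher-intensity pair, and its TGF-βR2 difference was 0.24 (95% interval -0.94 to 1.43).

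The desaturases and elongases of longer chains varied between replicates. *Fads1*, the delta-5 desaturase, was at 1.72, 2.38 and 2.11 in *Foxp3*Cre/+ and 1.19, 2.71 and 2.20 in *Foxp3*Cre/+*Lkb1*f/f, so that the knockout held both the lowest and the highest of all 12 arrays around an almost equal mean (difference -0.039). In the TGF-βR2 comparison it differed by 0.030. *Fads2*, the delta-6 desaturase, differed by 0.027 and 0.070, *Elovl1*, an elongase of saturated very long chains, by 0.026 and -0.081, and *Elovl5*, an elongase of polyunsaturated chains, by -0.10 and -0.13.

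Several lipid genes separated by intensity set rather than by genotype. *Fdft1*, *Lss*, *Scap*, *Srebf2*, *Acly*, *Fasn* and *Scd1* were higher on all 4 higher-intensity arrays than on all 8 others. These 7 of 31 genes (22.6%) compare with 14.7% of all genes, and 0 of 31 lay all below, against 11.7%. *Lss*, lanosterol synthase, was at 0.38 to 0.68 on the higher-intensity and -0.85 to -0.19 on the lower-intensity arrays. Each genotype holds 1 higher-intensity array, so this step counts in the spread within genotypes.

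The 2 knockouts were compared directly as a difference of differences. Of the 31 genes 15 had a lower mean in both knockouts, 3 a higher mean in both and 13 opposite directions. No shares of all genes were set beside these counts, so the counts do not mark the 31 out from other genes. The counts rest on all arrays as labelled and were not taken for the lower-intensity arrays alone. The difference between the knockout effects had its smallest unadjusted p for *Pmvk* (-0.35, Lkb1 minus TGF-βR2, SE 0.23, limma adjusted p = 1.0). This gene differed by -0.22 after Lkb1 and 0.13 after Tgfbr2 deletion. On the lower-intensity arrays these 2 differences were -0.29 and 0.19, and for the higher-intensity pair -0.082 and 0.013.

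Neighbouring genes of lipid metabolism gave the following. The counts of these lists stand against general shares of lower means. After Lkb1 deletion these were 66.7% of the genes above the array median and 56.1% of all genes. After Tgfbr2 deletion they were 45.8% and 48.2%. On the lower-intensity arrays, 64.0% of the genes above the array median were lower after Lkb1 deletion and 41.8% after Tgfbr2 deletion. For the higher-intensity pair, 6894 and 6591 of these 11844 genes were lower in turn. Of the further fatty acid genes, 11 of 20 had a lower mean after Lkb1 deletion (median -0.025) and 8 of 20 after Tgfbr2 deletion (median 0.054). *Elovl6*, the elongase that acts on palmitate, was at 0.96, 0.87 and 1.71 in *Foxp3*Cre/+ and 2.72, 1.66 and 1.96 in *Foxp3*Cre/+*Lkb1*f/f. One control lay within the knockout range, and the difference was 0.93 (SE 0.35, 95% interval 0.10 to 1.76, limma p = 0.033, adjusted p = 1.0, exact permutation p = 0.2), with 1.28 on the lower-intensity arrays and 0.24 for the higher-intensity pair. It was the only gene of these 20 at 1.5-fold, against 0.559% of all genes 1.5-fold or more higher in the Lkb1 comparison. In the TGF-βR2 comparison *Elovl6* differed by 0.47. *Acss2*, which makes acetyl-CoA from acetate, differed by -0.47 and -0.052 in the 2 comparisons, and *Hacd3*, a dehydratase of fatty acid elongation, by -0.30 and 0.37.

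Genes of SREBP processing had a lower mean in 7 of 8 after Lkb1 deletion (median -0.18) and in 4 of 8 after Tgfbr2 deletion (median 0.052), with *Mbtps2*, the site-2 protease that frees SREBP, at -0.48 and 0.16, *Erlin2*, a membrane protein of the endoplasmic reticulum that binds cholesterol, at -0.21 and 0.14, and *Lpin1*, a phosphatidate phosphatase, at -0.26 and -0.043. Of the isoprenoid branch and other sterol neighbours, 7 of 9 had a lower mean after Lkb1 deletion (median -0.043) and 9 of 9 a higher mean after Tgfbr2 deletion (median 0.081). Among them *Pdss2*, a subunit of the enzyme that makes the coenzyme Q side chain, was at -0.011 and 0.30, *Dhdds*, which makes dolichol precursors, at 0.015 and 0.30, and *Rabggtb*, a subunit of Rab geranylgeranyl transferase, at -0.039 and 0.37. None of the genes of these lists passed the test. After Lkb1 deletion the SREBP processing genes were lower in 7 of 8 on the lower-intensity arrays (median -0.27) but in 3 of 8 for the higher-intensity pair (median 0.068), where *Mbtps2* was at 0.086 and *Erlin2* at 0.29. The sterol neighbours were lower in 7 of 9 on the lower-intensity arrays (median -0.077) and in 4 of 9 for the pair (median 0.025). After Tgfbr2 deletion the latter genes were higher in 8 of 9 (median 0.20) and in 6 of 9 (median 0.15).

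Genes of cholesterol export and storage had a lower mean in 11 of 11 after Lkb1 deletion, with a median of -0.29 (-0.30 on the lower-intensity arrays and -0.20 for the higher-intensity pair). The macrophage and monocyte markers were also lower, in 16 of 16 with a median of -0.94. On the lower-intensity arrays 14 of the 16 markers were lower (median -1.48). For the higher-intensity pair 6 of the 16 markers were lower (median 0.080), against 10 of the 11 export and storage genes. The mean marker level was 3.36 on the *Foxp3*Cre/+ replicate 2 array, and the part of these markers in the result for the export and storage genes was not tested. When that array was left out, 8 of the 11 export and storage genes were lower (median -0.20), and 10 of the 16 markers (median -0.008). The intensity sets were then unequal between genotypes. *Lipa*, the lysosomal acid lipase, was highest on that array, with 3.03, 3.98 and 3.25 in *Foxp3*Cre/+ and 3.09, 2.67 and 3.24 in *Foxp3*Cre/+*Lkb1*f/f, a difference of -0.42. *Npc1*, which exports cholesterol from lysosomes, differed by -0.34 and *Nceh1*, a cholesteryl ester hydrolase, by -0.31. After Tgfbr2 deletion 5 of the 11 genes had a lower mean (median 0.10), with *Lipa* at 0.33, *Npc1* at -0.18 and *Nceh1* at -0.069. Cell cycle genes, which accompany lipid synthesis in growing cells, had a lower mean in 14 of 15 after Lkb1 deletion (median -0.20) and in 10 of 15 after Tgfbr2 deletion (median -0.055). After Lkb1 deletion 14 of 15 were lower on the lower-intensity arrays (median -0.26) and 14 of 15 for the higher-intensity pair (median -0.095). Without *Foxp3*Cre/+ replicate 2, 4 of the 15 were lower after Lkb1 deletion and the median was 0.11, with the intensity sets then unequal between genotypes. Of the helicase and clamp genes of DNA replication, *Mcm6* was at -0.39 and -0.086 in the 2 comparisons, *Mcm4* at -0.13 and -0.038, and *Pcna* at -0.10 and -0.15.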

How the data were processed

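The authors hybridized RNA of sorted CD4+YFP+ Treg cells to Affymetrix Mouse Genome 2.0 arrays, analysed them in Agilent GeneSpring GS and deposited log2 values of 41345 transcript clusters. Their summarization, normalization and annotation build are stated in no source used here. Since the array medians differ in 2 steps, each array was centred on its own median.

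Clusters were named from the platform annotation: 23521 carried 1 symbol, 1820 several and 16004 none. Comparisons used limma 3.58.1 in R 4.3.3 (its lmFit and eBayes functions, on every cluster and without covariates), Benjamini-Hochberg adjusted p-values, an exact permutation test for single genes, and a contrast over 12 arrays for the difference between knockouts. The script was tested on simulated data. The members, lists and motifs were chosen with earlier results of these data known. Every measured member was named; test statistics were given for those at 1.5-fold or more or with separate groups, and for the smallest difference-of-effects p, which was added after the values were seen, as were intervals for a few others. Of each of the further lists, up to 3 genes with the smallest p were named. Same-numbered arrays of the Lkb1 experiment deviated together from their group means (r = 0.39, 0.30 and 0.74 across clusters, although *Foxp3*Cre/+ replicate 1 correlated more, at 0.45, with knockout replicate 2), those of the TGF-βR2 experiment did not (-0.52, 0.23 and -0.57). In both experiments the highest r joined the higher-intensity arrays. It was 0.74 for replicate 3 of both Lkb1 genotypes and 0.72 for *Foxp3*Cre replicate 3 with *Foxp3*Cre*Tgfbr2* f/f replicate 1. Precision is limited by the number of arrays. Alternatives were scaling as deposited or by quantiles, a block for replicate number or intensity set, and each intensity set alone. Others were a filter on level, another prior, array weights, 1 model over 12 arrays and a plain t-test. The rest were averaging all clusters of a gene, a 2-fold mark and leaving out each array. The further lists without *Foxp3*Cre/+ replicate 2 were added after seeing the data.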

Additional observations from a re-analysis of the deposited data

How the results depend on the processing

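The limma count of 0 clusters past the threshold held for both comparisons and for the difference between them under each alternative fitted, the replicate block included, where *Insig1* kept its difference of -0.66 in the Lkb1 comparison with an adjusted p of 0.9988. Pairing by replicate number changed no call. The median difference of the sterol genes ran from -0.20 to -0.045 after Lkb1 deletion and from -0.17 to 0.027 after Tgfbr2 deletion over all alternatives.

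The count of lipid genes at 1.5-fold in the Lkb1 comparison was 1, and it was 0 at 2-fold. It ran from 0 to 2 when single arrays were left out, being 0 without *Foxp3*Cre/+*Lkb1*f/f replicate 2 and 2 without *Foxp3*Cre/+ replicate 2 or 3, where *Scd1* joined *Insig1*. *Scd1* was lower in the knockout without *Foxp3*Cre/+ replicate 2 and higher without replicate 3. The count was 1, but *Scd1* (lower in the knockout) in place of *Insig1*, for the higher-intensity pair (*Scd1* -1.68, *Insig1* -0.29) and without *Foxp3*Cre/+ replicate 1 (*Insig1* -0.42) or *Foxp3*Cre/+*Lkb1*f/f replicate 3 (*Insig1* -0.56), and *Fads1* in its place with array weights (*Insig1* -0.41). In the TGF-βR2 comparison the count was 0 and ran from 0 to 2 when single arrays were left out, with *Scd1* (higher in the knockout) without *Foxp3*Cre replicate 3 and *Scd1* (higher) and *Insig1* (lower) without *Foxp3*Cre*Tgfbr2* f/f replicate 2, and it was 3 for the higher-intensity pair (*Sqle*, *Cyp51* and *Insig1*). Each fit with 1 array left out had unequal intensity sets between genotypes. The mean level of *Scd1* was -2.05 on the lower-intensity and 0.24 on the higher-intensity arrays. The cause of these changes was not tested. The difference of *Insig1* ran from -1.03 to -0.38 over the arrays left out, and that of *Sc5d* from -0.53 to -0.33. *Acacb* and *Fads2* lay below the array median on all 12 arrays, and their signal over background is not known here.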
